A study of Homo sapiens with 6 samples.

Results

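The BCL2 family decides whether a stressed cell releases cytochrome c from its mitochondria. The 10 genes described here are the anti-apoptotic MCL1, BCL2 and BCL2L1 (BCL-XL), the pore-forming effectors BAX and BAK1, and the BH3-only genes BCL2L11 (BIM), BID, BAD, PMAIP1 (NOXA) and BBC3 (PUMA). They were chosen by name, and every probe set of the array whose only gene symbol in the platform table is one of them was taken. This gave 32 probe sets, of 41097 with exactly 1 symbol, for 9 of the 10 genes. BBC3 had none, because its probe set 211692_s_at also lists the microRNA genes MIR3190 and MIR3191. In the family, BAX and BAK1 open the outer mitochondrial membrane, the anti-apoptotic proteins bind and restrain them, and the BH3-only proteins relieve that restraint or activate the effectors directly. NOXA binds MCL1 preferentially, BAD binds BCL2 and BCL-XL, and BIM binds all of the anti-apoptotic members. MCL1 protein and mRNA turn over quickly, so its level follows transcription and degradation closely.

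RNA was measured on 6 Affymetrix arrays of RT-112, a cell line from a human bladder cancer. Cells received siRNA 1 against PPP2R2A, siRNA 2 against PPP2R2A or a scramble siRNA, and each group has an array A and an array B. PPP2R2A encodes a regulatory B subunit of the phosphatase PP2A. Every group, scramble included, was given 50 nM siRNA with Lipofectamine RNAiMAX at plating, at 50% confluence, and again 24 h later, and RNA was taken after a further 24 h. The duplicates are technical and come from 1 cell line, so the p-values below measure the spread between these arrays and not between separate experiments.

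Values are linear signals per probe set, and changes are differences of log2(signal + 1) with limma's adjusted p over all 12735 genes tested. A gene was read on its brightest probe set and called at an adjusted p under 0.05 with at least a 1.5-fold change. Array medians lay between 69.3 and 76.2, so the signals of the brighter members were far above the middle of the array. The targeted PPP2R2A read 336 and 397 with siRNA 1, 510 and 533 with siRNA 2, and 1381 and 1589 with scramble, and it fell with both siRNAs (log2 change -2.02, adjusted p = 0.0403, and -1.51, adjusted p = 0.0461). RNA quality was read from ACTB, whose probe sets near the start and end of the transcript gave a signal ratio (end over start) of 7.17 ± 0.918 with siRNA 1, 9.92 ± 3.47 with siRNA 2 and 5.68 ± 0.359 with scramble (SD, n = 2 arrays each). The siRNA 2 arrays differed, at 7.47 and 12.4. The same ratio for GAPDH was 1.01, 0.972 and 1.00. The part of RNA quality in the changes below was not tested. Of the epithelial markers, EPCAM read 12204 to 14272 over the 6 arrays and GATA3 11573 to 15031, and FGFR3 (411 to 515), UPK2 (50.3 to 154) and UPK3A (4.45 to 7.91) were dimmer. KRT13 averaged 20834 with siRNA 1, 15970.4 with siRNA 2 and 25448 with scramble, KRT8 9285, 6446 and 9916, and CDH1 18238, 11637 and 16374. Among markers of other cells, PTPRC stayed at or under 27.6 and CD3E at or under 111. The stromal COL1A1 read 867 to 1175. The other stromal markers were dimmer, with highest signals of 44.5 for COL1A2, 39.6 for COL3A1, 57.8 for PDGFRB and 135 for DES. The endothelial PECAM1 read 159 to 240, CDH5 73.2 to 147 and VWF 11.8 to 83.7. The part of these differences in the results was not tested.

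MCL1 was the 1 member called. On its brightest probe set it rose 2.02-fold with siRNA 2, and with siRNA 1 it stood 1.47-fold above scramble without passing the test. Its other probe sets above the array median on every array gave 1.42- to 1.54-fold with siRNA 2 and 1.33- to 1.53-fold with siRNA 1. The MCL1 call was lost under several other settings and whenever any 1 array was left out. BCL2L11 and BID were lower with siRNA 2 than with the scramble by an amount that was not called. On their brightest probe sets, the other 6 measured members lay within a log2 change of -0.15 to 0.36 of scramble with siRNA 1. For siRNA 2 the range on those sets was -0.12 to 0.28. Dimmer tested sets of these members spread wider, and none was called. Their extremes were -0.35 (BCL2L1) and 1.01 (BCL2) for siRNA 1, and -0.16 (BAD) and 1.37 (BCL2) for siRNA 2. The BCL2 extremes came from a set that exceeded the array median on siRNA arrays only.

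Of the 9 measured members, 0 were called with siRNA 1, where 0.393% of all genes were called, and 1 was called with siRNA 2, where 0.597% were. At an unadjusted limma p under 0.05 there were 2 members higher and 0 lower with siRNA 1, where 9.55% of all genes were higher and 6.65% lower. With siRNA 2 there were 2 higher and 2 lower, where 12% of all genes were higher and 8.76% lower. The median log2 change of the members was -0.03 with siRNA 1 and -0.06 with siRNA 2, beside 0.01 and 0.02 over all genes tested. The groups did not overlap for 5 members with siRNA 1 and for 5 with siRNA 2. Over all genes the groups did not overlap for 49.4% with siRNA 1 and 52.4% with siRNA 2, so non-overlap by itself was common on these arrays.

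**Figure D1:**
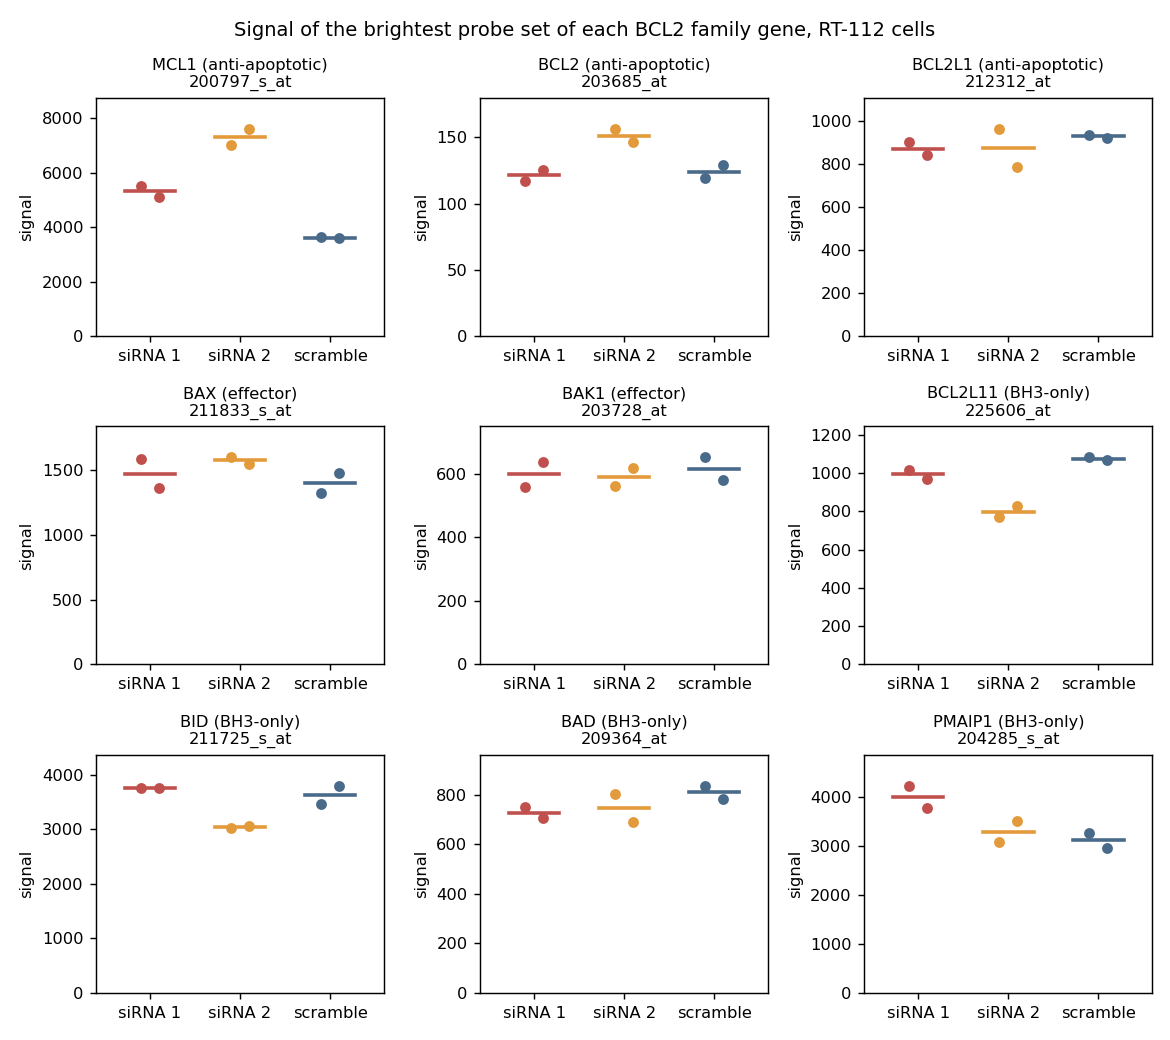
Signal of each of the 9 measured members on its brightest probe set (linear signal on an axis from 0 that differs between genes), with 1 point per array, a bar at the mean, and siRNA 1, siRNA 2 and scramble from left to right. MCL1 lay at 5121 and 5495 with siRNA 1 and at 6998 and 7603 with siRNA 2, above the scramble arrays at 3611 and 3621. BAK1, BCL2L1, BAD and PMAIP1 overlapped between siRNA 2 and scramble.

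MCL1, the short-lived guardian of the family, was read by 6 probe sets. On the brightest, 200797_s_at, the signals were 5495 and 5121 with siRNA 1, 6998 and 7603 with siRNA 2, and 3621 and 3611 with scramble. The 3 groups were in separate ranges, highest with siRNA 2 and lowest with scramble. The means were 5308 ± 264 with siRNA 1, 7300.4 ± 428 with siRNA 2 and 3616 ± 7.27 with scramble (SD, n = 2 arrays each). The log2 change was 0.55 with siRNA 1 (SE 0.09, limma adjusted p = 0.0936) and 1.01 with siRNA 2 (SE 0.09, adjusted p = 0.0461). The call with siRNA 2 was lost under 5 other settings, among them the replicate letter as a block (adjusted p = 0.129) and no filter (adjusted p = 0.178), and whenever any 1 array was left out (adjusted p from 0.113 to 0.190). The log2 change in those leave-out fits stayed between 0.95 and 1.07.

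The other 3 bright MCL1 probe sets also lay above the array median on every array. On 200798_x_at the signals were 4427 and 4504 with siRNA 1, 3929 and 5234 with siRNA 2, and 3113 and 2773 with scramble. On 214056_at they were 793 and 880 with siRNA 1, 766 and 819.9 with siRNA 2, and 553 and 539 with scramble. On 214057_at they were 551 and 612 with siRNA 1, 614 and 629 with siRNA 2, and 432 and 442 with scramble. All 4 bright probe sets therefore placed every siRNA array above both scramble arrays.

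The size of the MCL1 change depended on the probe set. The 3 dimmer ones of the bright 4 gave log2 changes of 0.41 to 0.61 with siRNA 1 and 0.51 to 0.63 with siRNA 2, against 0.55 and 1.01 on 200797_s_at. Averaging the 4, a measure added after the data were seen, gave 0.54 with siRNA 1 (adjusted p = 0.0586) and 0.67 with siRNA 2 (adjusted p = 0.0247). By that measure MCL1 was again called with siRNA 2 and not with siRNA 1, where 2.89% and 1.51% of genes were called. The dim sets 227175_at and 200796_s_at ranged over the 6 arrays from 44.5 to 86.0 and from 7.84 to 93.7, and siRNA 1 overlapped scramble on both. With siRNA 2, both arrays were above scramble on 227175_at and overlapped it on 200796_s_at. The set 227175_at was tested only because siRNA arrays exceeded the array median. Both of its scramble arrays were below their medians, so its separation adds no support. With all 6 probe sets averaged the log2 changes were 0.16 and 0.57, neither called (adjusted p = 0.842 and 0.405).

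**Figure D2:**
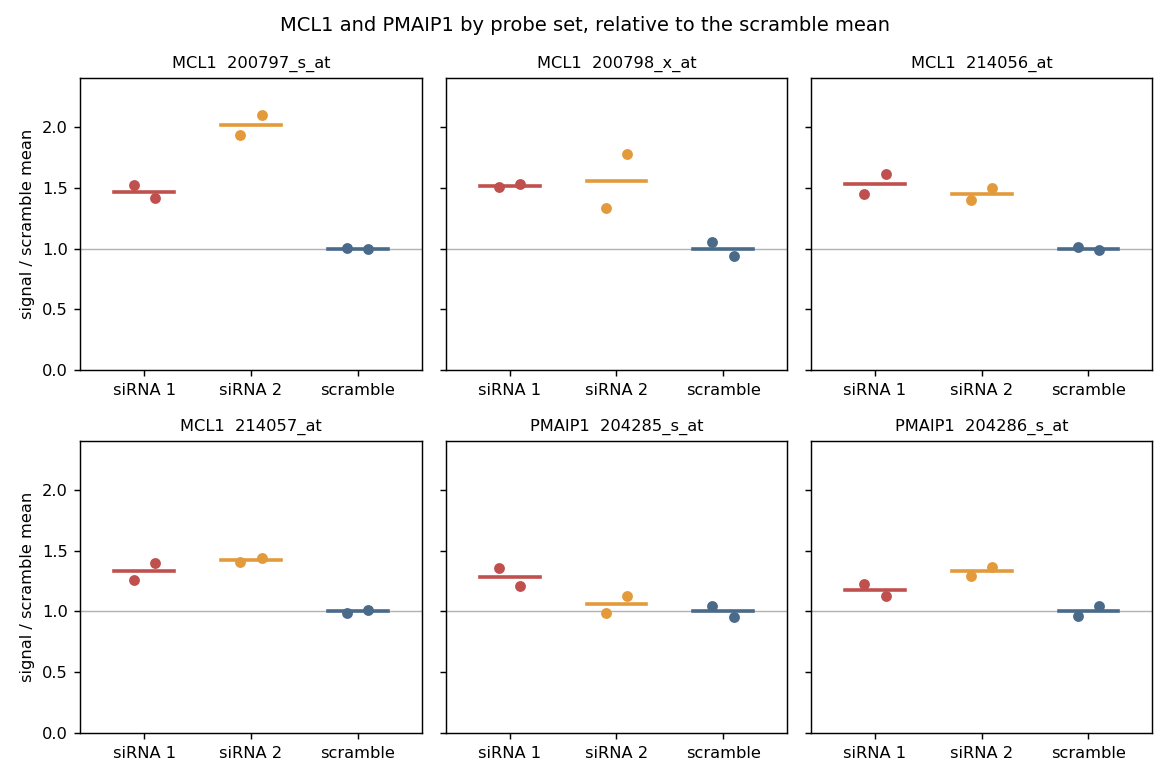
Signals of the 4 bright MCL1 probe sets and the 2 PMAIP1 probe sets divided by the scramble mean of the same set (1 point per array, bars at the means, siRNA 1, siRNA 2 and scramble from left to right). Every siRNA array lay above both scramble arrays on all 4 MCL1 sets, and the siRNA 1 minus siRNA 2 difference was log2 -0.46 on 200797_s_at and between -0.10 and 0.08 on the others. The 2 PMAIP1 sets order the siRNAs differently.

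BCL2 and BCL2L1, the other anti-apoptotic genes, were not called. BCL2 was dim in these cells: 203685_at read 117 and 126 with siRNA 1, 156 and 146 with siRNA 2, and 119 and 129 with scramble. Both siRNA 2 arrays were above all other arrays (log2 change 0.28, adjusted p = 0.196), and siRNA 1 overlapped scramble (log2 change -0.03, adjusted p = 0.895). A second BCL2 probe set, 207004_at, read 144 and 61.0 with siRNA 1, 134 and 109 with siRNA 2, and 64.7 and 32.8 with scramble. Its duplicates differed about as much as the groups did with siRNA 1. Both of its siRNA 2 arrays were above scramble (log2 change 1.37). However, 207004_at was tested only because siRNA arrays exceeded the array median. Both of its scramble arrays were below their medians, so it adds no support to a higher BCL2 signal. Neither tested BCL2 set was called.

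BCL2L1 on 212312_at read 905 and 843 with siRNA 1, 965 and 787 with siRNA 2, and 937 and 924 with scramble. Its log2 change was -0.09 with each siRNA (adjusted p = 0.766 with siRNA 1 and 0.721 with siRNA 2). The 95% interval with siRNA 1 ran from -0.42 to 0.24. The dimmer sets went partly the other way: 215037_s_at gave 0.39 with siRNA 1 and 0.19 with siRNA 2, and 231228_at gave -0.35 and 0.73. Both siRNA 1 arrays on 215037_s_at and both siRNA 2 arrays on 231228_at were above scramble, and none of these differences reached an unadjusted limma p of 0.05.

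The effectors BAX and BAK1 carry out membrane permeabilization. BAX on 211833_s_at read 1585 and 1359 with siRNA 1, 1596 and 1549 with siRNA 2, and 1319 and 1474 with scramble. The siRNA 2 arrays were above both scramble arrays and the siRNA 1 arrays overlapped them (log2 change 0.07, adjusted p = 0.800 with siRNA 1; 0.17, adjusted p = 0.466 with siRNA 2). On 208478_s_at BAX read 1349 and 1223 with siRNA 1, 1425 and 1471 with siRNA 2, and 1090.5 and 1243 with scramble, for log2 changes of 0.14 and 0.31. BAK1 on its single probe set 203728_at read 559 and 638 with siRNA 1, 561 and 617 with siRNA 2, and 651 and 581 with scramble. All 3 BAK1 groups overlapped (log2 change -0.04, adjusted p = 0.893, and -0.06, adjusted p = 0.806).

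PMAIP1 and BCL2L11 are the BH3-only members best known for transcriptional control, by p53 and ATF4 for NOXA and by FOXO factors for BIM. Their promoters are shown because, among brightest probe sets of tested BH3-only members, PMAIP1 changed most with siRNA 1 and BCL2L11 with siRNA 2. Capitals mark the GC box GGGCGG or its reverse complement CCGCCC, and the core of the cyclic AMP response element, TGACG or CGTCA. Both windows are the 250 bases before the RefSeq gene start (GRCh38.p14, plus strand), chr18:59899746-59899995 for PMAIP1 and chr2:111120664-111120913 for BCL2L11.
PMAIP1: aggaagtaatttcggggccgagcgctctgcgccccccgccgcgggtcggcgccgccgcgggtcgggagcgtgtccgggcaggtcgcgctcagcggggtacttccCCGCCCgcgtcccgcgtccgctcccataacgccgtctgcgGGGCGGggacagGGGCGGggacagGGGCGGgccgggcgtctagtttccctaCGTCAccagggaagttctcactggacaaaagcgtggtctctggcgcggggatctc
BCL2L11: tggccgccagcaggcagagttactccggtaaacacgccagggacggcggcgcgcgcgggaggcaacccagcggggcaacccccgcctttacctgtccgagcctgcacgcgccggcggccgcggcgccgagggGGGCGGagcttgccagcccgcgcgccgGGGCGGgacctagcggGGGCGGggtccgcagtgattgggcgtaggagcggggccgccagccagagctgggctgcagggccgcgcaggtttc

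The PMAIP1 window held 4 GC boxes and 1 TGACG core, at position -55 from the gene start. The BCL2L11 window held 3 GC boxes and 0 TGACG cores. Searched on both strands, the GC box was in 42.6% and TGACG in 21.2% of 35116 RefSeq promoter windows of the same length. In these windows no GC box overlapped another or the TGACG core. A match describes the letters only.

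PMAIP1 on 204285_s_at read 4225 and 3772 with siRNA 1, 3077 and 3501 with siRNA 2, and 3259 and 2967 with scramble. Both siRNA 1 arrays were above all others and siRNA 2 overlapped scramble (log2 change 0.36, adjusted p = 0.257 with siRNA 1; 0.08, adjusted p = 0.752 with siRNA 2). On 204286_s_at PMAIP1 read 2508 and 2304 with siRNA 1, 2645 and 2784 with siRNA 2, and 1962 and 2127 with scramble. There both siRNAs lay above scramble and siRNA 2 was the higher (log2 change 0.23 and 0.41). The probe sets thus disagreed on which siRNA gave the higher NOXA signal, and neither called it.

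BCL2L11 on 225606_at read 1018 and 971 with siRNA 1, 768 and 829 with siRNA 2, and 1081 and 1069 with scramble. Every siRNA array was below both scramble arrays, and the siRNA 2 arrays were the lowest. The log2 change was -0.11 with siRNA 1 (adjusted p = 0.573) and -0.43 with siRNA 2 (adjusted p = 0.0921). All 6 tested BIM probe sets were lower on average with siRNA 2, with log2 changes from -0.67 to -0.12, and 5 of 6 with siRNA 1. None of the other 5 sets reached an unadjusted limma p of 0.05 with either siRNA.

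BID, which links death receptors to mitochondria once cleaved, had its brightest signal on 211725_s_at. It read 3754 and 3750.3 with siRNA 1, 3026 and 3061 with siRNA 2, and 3470 and 3793 with scramble. Only the siRNA 2 arrays were below scramble (log2 change -0.25, adjusted p = 0.196), and siRNA 1 overlapped it (0.05, adjusted p = 0.818). On 204493_at BID read 2019 and 2145 with siRNA 1, 1714 and 1598 with siRNA 2, and 1974 and 2043 with scramble, with log2 changes of 0.05 and -0.28. The third BID set, 227143_s_at, gave 0.08 and 0.05, so the lower signal with siRNA 2 was on 2 of 3 sets.

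BAD, a sensitizer whose activity is controlled by phosphorylation, read 751 and 704 with siRNA 1, 804 and 689.9 with siRNA 2, and 835 and 783 with scramble on 209364_at. Both siRNA 1 arrays were below scramble (log2 change -0.15, adjusted p = 0.564) and siRNA 2 overlapped it (-0.12, adjusted p = 0.606). The other BAD sets gave 0.11 and 0.16 on 1861_at and 0.16 and -0.16 on 232660_at, so the direction was not shared between sets. BBC3, on the probe set it shares with 2 microRNA genes, read 239 and 259 with siRNA 1, 189 and 214 with siRNA 2, and 203 and 179 with scramble, and it was not tested.

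**Figure D3:**
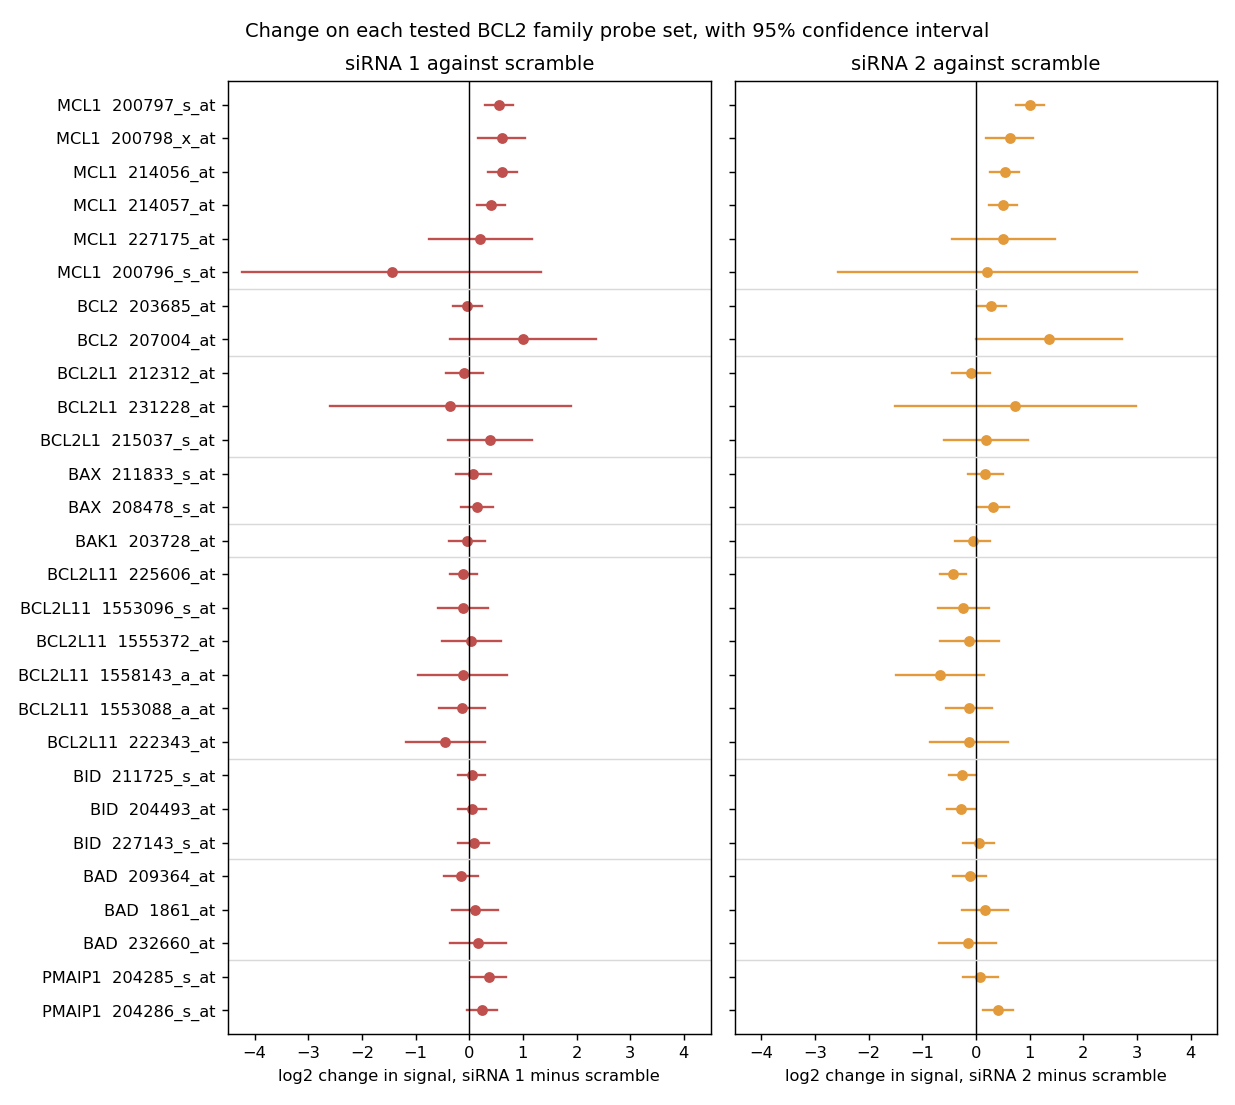
Log2 change against scramble of each of the 28 member probe sets that passed the filter, with siRNA 1 and siRNA 2 side by side and bars for the 95% interval of the probe-set fit. The 4 bright MCL1 sets lay between 0.41 and 1.01, and the 6 BIM sets lay between -0.67 and -0.12 with siRNA 2.

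Of the 32 member probe sets, 28 passed the filter on low signal. The 4 that did not were 2 of BCL2, 1 of BCL2L1 and 1 of BCL2L11. Fitted over all 23975 probe sets, 0 of the 28 were called with siRNA 1 and 0 with siRNA 2, where 0% and 0.00417% of all probe sets were called. At an unadjusted limma p under 0.05, 5 were higher and 0 lower with siRNA 1, against 7.4% and 6.3% of all probe sets. With siRNA 2, 8 were higher and 3 lower, against 9.17% and 8.87% of all probe sets. Of the 8 higher with siRNA 2, 4 were the bright MCL1 sets. Another was BCL2 207004_at, which passed the filter only through siRNA arrays. Its place in that count is therefore no separate support.

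The siRNAs were compared with each other directly. For 0 of the 9 members was the difference between siRNA 1 and siRNA 2 called, where 0.212% of all genes were called. At an unadjusted limma p under 0.05 there were 2 higher and 2 lower with siRNA 1, against 9.16% and 9.53% of all genes. MCL1 and BCL2 were lower with siRNA 1 than with siRNA 2, and BCL2L11 and BID were higher, by log2 differences of -0.46 (adjusted p = 0.107), -0.32 (adjusted p = 0.193), 0.32 (adjusted p = 0.170) and 0.30 (adjusted p = 0.179). For MCL1 the interval of the difference ran from -0.69 to -0.23 on 200797_s_at, but the other 3 bright sets gave -0.02, 0.08 and -0.10, and their mean with it gave -0.13 (adjusted p = 0.516).

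The genes whose log2 signals ran most like those of MCL1 over the 6 arrays were WIPF2 (Pearson r = 0.9997), CKAP4 (0.995), DCTN4 (0.995), RABGAP1 (0.994) and TIAM2 (0.993). They encode a WASP-interacting protein, an endoplasmic reticulum membrane protein, a dynactin subunit, a GTPase-activating protein for Rab proteins and a Rac exchange factor. The 6 arrays are 3 pairs of duplicates, so such values mainly order the 3 groups. Their sizes differed widely: WIPF2 changed by log2 0.10 with siRNA 1 and 0.19 with siRNA 2, and TIAM2 by 0.62 and 1.13.

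Other genes of the mitochondrial pathway gave 1 call. In the list of outer membrane partners, 8 of 8 were tested. With siRNA 1, 0 were called, beside 0.393% of all genes. With siRNA 2, 1 was called, beside 0.597% of all genes. It was TOMM20, an import receptor of the outer mitochondrial membrane. TOMM20 read 14861 and 14877 with siRNA 1, 17201 and 17440 with siRNA 2, and 9673 and 9013 with scramble. Its order was that of MCL1, and it rose with siRNA 2 (log2 change 0.89, adjusted p = 0.0461) and was not called with siRNA 1 (0.67, adjusted p = 0.0676). Its call, like every other, was lost with the replicate block, with no filter, with the mean of probe sets and whenever 1 array was left out, where 0 genes were called. VDAC1, a channel that BCL2 proteins bind, had a log2 change of -0.30 with siRNA 2 (adjusted p = 0.179), and TSPO one of -0.09 (adjusted p = 0.569).

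Of 13 other BCL2 family genes, 12 were tested and 0 were called by limma with either siRNA. Of all genes 0.393% were called with siRNA 1 and 0.597% with siRNA 2. In each comparison 1 gene of the list was lower at an unadjusted p under 0.05. Over all genes 6.65% were lower with siRNA 1 and 8.76% with siRNA 2. The median log2 change of the list was 0.05 with siRNA 1 and -0.15 with siRNA 2, beside 0.01 and 0.02 over all genes. BNIP3L (NIX), a mitophagy receptor, read 1308 and 1307 with siRNA 1, 2199.5 and 2354 with siRNA 2, and 2147 and 1983 with scramble. It was low with siRNA 1 alone (log2 change -0.66, adjusted p = 0.0800), and the difference between the siRNAs was -0.80 (adjusted p = 0.0617). BCL2L12 had log2 changes of -0.12 with siRNA 1 and -0.22 with siRNA 2, and the anti-apoptotic BCL2L2 of 0.14 and -0.10.

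Downstream of the mitochondria, 11 of 13 genes of the apoptosome and caspase list were tested and 0 were called, with 3 lower and 0 higher at an unadjusted limma p under 0.05 for each siRNA. Of all genes 0.393% were called with siRNA 1 and 0.597% with siRNA 2, and 6.65% and 8.76% were lower at that unadjusted p. The list's median log2 change was -0.13 with siRNA 1 and -0.05 with siRNA 2, beside 0.01 and 0.02 over all genes. DFFA, the inhibitor of the apoptotic nuclease, had log2 changes of -0.20 and -0.26, the nuclease ENDOG of -0.50 and -0.26, and AIFM1 of -0.08 and -0.42. The lowest adjusted p among these 3 was 0.128, for AIFM1 with siRNA 2.

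Of 6 inhibitors of apoptosis, 5 were tested and 0 were called by limma. At an unadjusted p under 0.05 there were 0 with siRNA 1 and 2 with siRNA 2, both higher, where 12% of all genes were higher. The called share of all genes was 0.393% with siRNA 1 and 0.597% with siRNA 2. XIAP, which blocks caspases directly, read 3617 and 3322 with siRNA 1, 4044 and 4161 with siRNA 2, and 3158 and 3264 with scramble. Its siRNA 2 arrays were the highest (log2 change 0.35, adjusted p = 0.123). NAIP, a dim gene, had a log2 change of 0.96 with siRNA 2 (adjusted p = 0.152), and BIRC5 (survivin) of 0.09 (adjusted p = 0.638).

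In the death receptor pathway 9 of 14 genes were tested and 0 were called by limma, with 0 at an unadjusted p under 0.05 with siRNA 1, and 1 higher and 3 lower with siRNA 2. With siRNA 1, 9.55% of all genes were higher at that p and 6.65% lower, and with siRNA 2, 12% and 8.76%. Calls were made for 0.393% of all genes with siRNA 1 and 0.597% with siRNA 2. The list's median was 0.07 with siRNA 1 and -0.20 with siRNA 2. TNFSF10, the ligand TRAIL, read 1324 and 1352 with siRNA 1, 747 and 761 with siRNA 2, and 1195 and 1283 with scramble. It was lowest with siRNA 2 (log2 change -0.72, adjusted p = 0.0546), and siRNA 1 stood above siRNA 2 by 0.83 (adjusted p = 0.0575). FAS and TNFRSF1A had log2 changes of -0.31 and -0.31 with siRNA 2, with adjusted p = 0.175 and 0.166.

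Genes that set MCL1 protein turnover were all tested, 9 of 9. Of all genes 0.393% were called by limma with siRNA 1 and 0.597% with siRNA 2, and 0 of the 9 were called. At an unadjusted p under 0.05 there were 2 lower with siRNA 1, where 6.65% of all genes were lower, and 0 with siRNA 2. The 2 were ubiquitin ligase components: FBXW7, with a log2 change of -0.34 with siRNA 1 (adjusted p = 0.284) and -0.18 with siRNA 2 (adjusted p = 0.460), and BTRC, with -0.30 (adjusted p = 0.300) and 0.08 (adjusted p = 0.744). MARCHF5, a mitochondrial ligase, had 0.15 and -0.09.

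Of 13 transcription factors known to act on BH3-only genes, 10 were tested and 0 were called by limma, with 2 higher and 1 lower at an unadjusted p under 0.05 for each siRNA. Of all genes 9.55% were higher and 6.65% lower at that p with siRNA 1, and 12% and 8.76% with siRNA 2. The share called was 0.393% with siRNA 1 and 0.597% with siRNA 2. DDIT3 (CHOP) read 639 and 814 with siRNA 1, 744 and 983 with siRNA 2, and 449 and 346 with scramble. Every siRNA array was above both scramble arrays (log2 change 0.87, adjusted p = 0.195 with siRNA 1; 1.11, adjusted p = 0.0950 with siRNA 2). ATF4 had log2 changes of 0.13 (adjusted p = 0.661) and 0.53 (adjusted p = 0.113), and FOXO1 of 0.34 (adjusted p = 0.196) and 0.20 (adjusted p = 0.304). The lower gene was JUN with siRNA 1 (log2 change -0.55, adjusted p = 0.212) and MYC with siRNA 2 (-0.48, adjusted p = 0.154), both named after their values were seen.

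**Figure D4:**
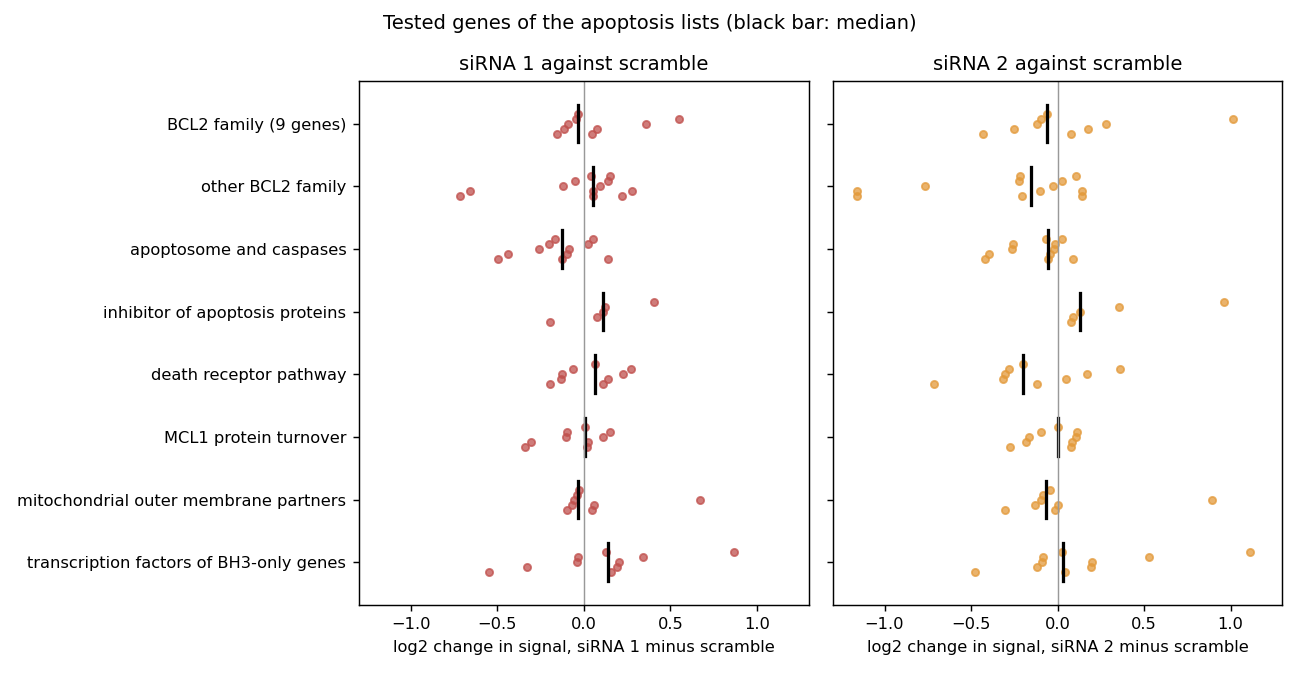
Log2 change against scramble of every tested gene of the 7 apoptosis lists and of the members, with siRNA 1 and siRNA 2 side by side, 1 point per gene and a black bar at each list's median. Apart from MCL1 among the members and TOMM20 among the outer membrane partners, both with siRNA 2, no gene of these lists was called.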

How the data were processed

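The authors deposited 1 table of linear signal intensities for 54675 probe sets on 6 arrays, made with Affymetrix Expression Console per the submitters' processing notes. Which version and algorithm were used is not given in the sources used here. The 2%-trimmed mean was 500.1 on every array. Sample titles gave the groups, and 1 siRNA 1 sample whose title misspells the gene was placed by its siRNA number. Symbols came from the platform table, where 1801 probe sets carry several symbols and 11777 none. They were matched by Entrez ID to RefSeq names of GRCh38.p14 for 41043 of the 41097 single-symbol sets.

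Of a gene's probe sets, the 1 with the highest mean log2(signal + 1) stood for it. Genes whose set exceeded the 50th percentile of the array on fewer than 2 arrays were left out (7040 of 19775). limma 3.58.1 in R 4.3.3 (lmFit, eBayes, Benjamini-Hochberg adjustment) fitted the 3 groups over 6 arrays, with 3 residual and 1.72 prior degrees of freedom. Member probe sets were also fitted among all 23975 single-symbol sets that passed the filter. The number of arrays limits the precision.

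Members and lists were chosen with earlier results of these data known. Text names the members, PPP2R2A, list genes called in any comparison (below 3, filled with the smallest p), and the 5 genes with the highest r to MCL1. Alternatives were quantile normalization, median centring, a block for the replicate letter, an intensity trend, a pseudocount of 16, other filters and probe set rules, and leaving out each array. Arrays of the same letter did not deviate together in signal (correlations 0.0383, -0.0309 and 0.0139). These correlations cannot show whether arrays of the same letter were handled together. Plots were made in Python 3.11.15 with matplotlib 3.10.9.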

Additional observations from a re-analysis of the deposited data

Results flagged for a closer look

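Signals outside the tests exceeded scramble on 3 probe sets and lay below it on 1. The BCL2 set 207005_s_at, below the filter, averaged 24.2 ± 5.25 in siRNA 1 cells and 47.8 ± 25.9 in siRNA 2 cells, while the scramble mean was 10.1 ± 1.83 (SD, n = 2 arrays each). The other BCL2 set below the filter, 203684_s_at, ran the other way with siRNA 2, at 5.70 ± 1.13 in siRNA 2 cells and 32.3 ± 15.6 in scramble cells. The BCL2L1 set 206665_s_at, also below the filter, averaged 75.3 ± 10.3 with siRNA 2 and 36.9 ± 33.1 with scramble. The BBC3 set 211692_s_at, left out because it carries 3 symbols, averaged 249 ± 14.3 with siRNA 1 and 191 ± 16.9 with scramble. None was tested.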

How the results depend on the processing

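MCL1 was above scramble with both siRNAs under every setting that gives 1 value per gene, by log2 0.16 to 0.60 for siRNA 1 and 0.57 to 1.07 for siRNA 2. BCL2L11 with siRNA 2 was lower in those settings (log2 change -0.48 to -0.29). Its lowest limma adjusted p there was 0.0183 and its highest 0.508, and its change stayed under 1.5-fold. With each probe set on its own, MCL1 gave -1.44 to 0.61 with siRNA 1, where the dim 200796_s_at alone was below 0, and 0.21 to 1.01 with siRNA 2, and BCL2L11 gave -0.67 to -0.12 with siRNA 2. With siRNA 1, MCL1 had a limma adjusted p of 0.00222 under an intensity trend and 0.0112 with a filter at the 75th percentile. At 1.47-fold it fell short of the 1.5-fold needed for a call. The MCL1 call with siRNA 2 stood under quantile normalization (adjusted p = 0.0460), an intensity trend (7.24e-05), a pseudocount of 16 (0.0396), a filter at the 75th percentile (0.00153) and the mean of its bright sets (0.0247). It was lost, leaving 0 members called, with median centring (adjusted p = 0.0810), the replicate block (0.129), no filter (0.178), the mean of all probe sets (0.405), each probe set on its own (0.0814) and without any 1 array (0.113 to 0.190).

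Counts of called genes moved widely, from 50 with siRNA 1, 76 with siRNA 2 and 27 between the siRNAs. In that order they were 299, 472 and 362 with the trend, 280, 389 and 323 at the 75th percentile, and 164, 314 and 202 with the mean of bright sets, added after the data were seen. Quantile normalization gave 33 with siRNA 1 and 12 between the siRNAs, median centring 11, 1 and 0, and the pseudocount of 16 gave 162 with siRNA 2. Each probe set on its own gave 0, 1 and 0. The replicate block, no filter and the mean of all probe sets each gave 0, 0 and 0 in limma. At an unadjusted p under 0.05 these still held 1921, 2485 and 2235 genes with the block, 2065, 2526 and 2309 with no filter, and 1410, 1755 and 1559 with the mean. Leaving out any 1 array gave 0 to 0 in all 3 comparisons, with 1464 to 1937, 1922 to 2416 and 1599 to 2162 genes at that p, so the TOMM20 and PPP2R2A calls were lost there too. In the fits that leave 1 array in a group, that array is assumed to vary like the other groups. The causes were not tested.

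Uncalled values near 0 changed sign. With siRNA 1, the mean of all probe sets gave 0.46 for BCL2 and 0.041 for BAD, and the mean of bright sets 0.15 for BCL2L1 and 0.041 for BAD. With siRNA 2, BCL2L1 was 0.54 and 0.046 under those means. Between the siRNAs the mean of all probe sets gave 0.10 for BCL2, -0.57 for BCL2L1 and 0.080 for BAD, the bright sets 0.080 for BAD, and median centring -0.018 for BCL2L1 and -0.00028 for BAK1. Leaving out 1 array gave, with siRNA 1, -0.091 to 0.025 for BCL2, -0.037 to 0.18 for BAX, -0.14 to 0.053 for BAK1 and -0.016 to 0.11 for BID. With siRNA 2 it gave -0.24 to 0.053 for BCL2L1, -0.15 to 0.018 for BAK1 and -0.015 to 0.17 for PMAIP1. Between the siRNAs it gave -0.14 to 0.15 for BCL2L1, -0.21 to 0.011 for BAX, -0.075 to 0.12 for BAK1 and -0.15 to 0.076 for BAD.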
